A study of Mus musculus with 27 samples.

Results

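Laminins, nidogens and the heparan sulfate proteoglycans perlecan and agrin are the proteins that, together with type IV collagen, build basement membranes, and the transcripts of 10 of their genes were followed in the mouse heart from birth to 1.5 years. The 10 genes were taken by symbol from the count table of each tissue, and all 10 were found among the 22855 genes of each table. They were the laminin α chains Lama2, Lama4 and Lama5, the β chains Lamb1 and Lamb2, the γ chain Lamc1, the nidogens Nid1 and Nid2, Hspg2 (perlecan) and Agrn (agrin). RNA-Seq was performed on 12 samples of cardiac fibroblasts, sorted by flow cytometry for the surface receptor PDGFRα after enzymatic digestion of the heart, and on 15 samples of whole heart. All animals were of strain C57Bl/6, and the labels name no treatment, genetic change or sex. Cardiac fibroblasts came as 3 samples at postnatal day 1, 3 at 4 weeks, and 2 for each later age (14 weeks, then 1 and 1.5 years), and whole hearts as 3 samples at each of the 5 ages. The study compared these ages within each tissue, to describe how the extracellular matrix genes of cardiac fibroblasts change from neonatal to aged animals.

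A laminin is a trimer of 1 α, 1 β and 1 γ chain, and the trimer is named after its chains. Laminins polymerize into a sheet on the cell surface, where α2 chains bind dystroglycan and integrins, and the laminin sheet is joined to the type IV collagen network by nidogens and perlecan. In the heart, laminins with an α2 chain surround cardiomyocytes, those with α4 and α5 chains lie around blood vessels, and agrin is best known for its part at the neuromuscular junction and, in the neonatal heart, for its link to cardiomyocyte proliferation.

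The balance of the 2 β chains changed with age in each tissue, and their genes lie on different chromosomes and start from unlike promoters. Lamb1 is at chr12:31265234-31329644 on the plus strand of GRCm38 and Lamb2 at chr9:108479736-108490530, also on the plus strand. Promoter sequences from RefSeq (GRCm38.p6) were matched for 7 of the 10 genes. The bases that precede the first annotated exon are shown for these chains, 5′ to 3′, with the letters CCAAT and CCGCCC (the reverse complement of the GC box GGGCGG) in capitals, for chr12:31265043-31265233 and chr9:108479612-108479735.
Lamb1: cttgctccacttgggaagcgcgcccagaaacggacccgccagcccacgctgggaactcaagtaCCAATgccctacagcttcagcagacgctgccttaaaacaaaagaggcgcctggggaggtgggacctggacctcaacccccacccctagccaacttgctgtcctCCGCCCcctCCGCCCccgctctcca
Lamb2: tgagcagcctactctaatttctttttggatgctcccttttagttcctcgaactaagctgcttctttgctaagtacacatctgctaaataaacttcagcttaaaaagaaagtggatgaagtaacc
Within the 250 bases before each RefSeq start, searched on both strands, the Lamb1 promoter held 2 GC boxes, 1 CCAAT box and 14 CpG dinucleotides at 62.0% GC. The Lamb2 promoter held none of these boxes, 3 CpG dinucleotides and 43.6% GC. Over all 32851 promoters in the table the median was 52.4% GC and 6 CpG dinucleotides, 32.7% held a GC box and 33.8% a CCAAT box. These are matches of letters and not binding sites.

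The sorted libraries held 54615898 to 76758831 counts each, and those of hearts 46091271 to 67984404. Levels are given as CPM (the counts of a gene relative to those of the library, on a common scale) after scaling of the libraries of a tissue by the TMM method. Between genes they are compared only per kilobase of exonic length. Levels of Pdgfra, of sex-linked genes and of cell type markers are by library total instead, without TMM scaling. In hearts the TMM factors were 1.40 to 1.47 at postnatal day 1 and 0.787 to 1.05 at later ages. Orders of heart samples are on the TMM scale and can differ by library total. Samples of 2 ages did not overlap, in either direction, for many of all genes tested. In cardiac fibroblasts this share was 28.5% for 4 weeks and 41.2% for 1.5 years, each against birth. It was 34.7% for 14 against 4 weeks, 53.4% for 1 year against 14 weeks, and 41.0% for 1.5 years against 1 year. In hearts the same shares were 39.0%, 45.7%, 20.1%, 26.4% and 22.9%. Pdgfra, the receptor used for sorting, was present at 822 to 1419 CPM in the sorted samples and 24.7 to 65.4 CPM in whole hearts. Summed over 7 cardiomyocyte markers, the sorted samples held 735.5 to 814.9 CPM at postnatal day 1 and 9.86 to 140.6 CPM at later ages. Xist was at most 0.490 CPM in every sample of 14 weeks and 1 year, where the Y-linked gene Ddx3y was at least 30.9 CPM, and Ddx3y was at most 0.392 CPM in every sample of 1.5 years. Both genes were present at postnatal day 1 and 4 weeks, but Xist did not overlap between these ages. It was 147 to 289 CPM at birth and 383 to 599.5 CPM at 4 weeks in sorted samples. In hearts it was 183 to 470 CPM at birth and 6.55 to 148 CPM at 4 weeks. The mix of sexes may thus differ between these ages too, and its part in their differences cannot be told apart. A difference of 1.5 years from any other age, or of 14 weeks or 1 year from a younger age, therefore cannot be told apart from a difference in the sex of the animals, whereas 14 weeks and 1 year were alike in these genes. By the study's methods the fibroblast sets of an age came from different hearts, and the hearts of origin were sequenced as well. The labels tie no sample to an animal, so that which samples of the tissues share animals is not known, and p values measure the spread between these samples.

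**Figure D1:**
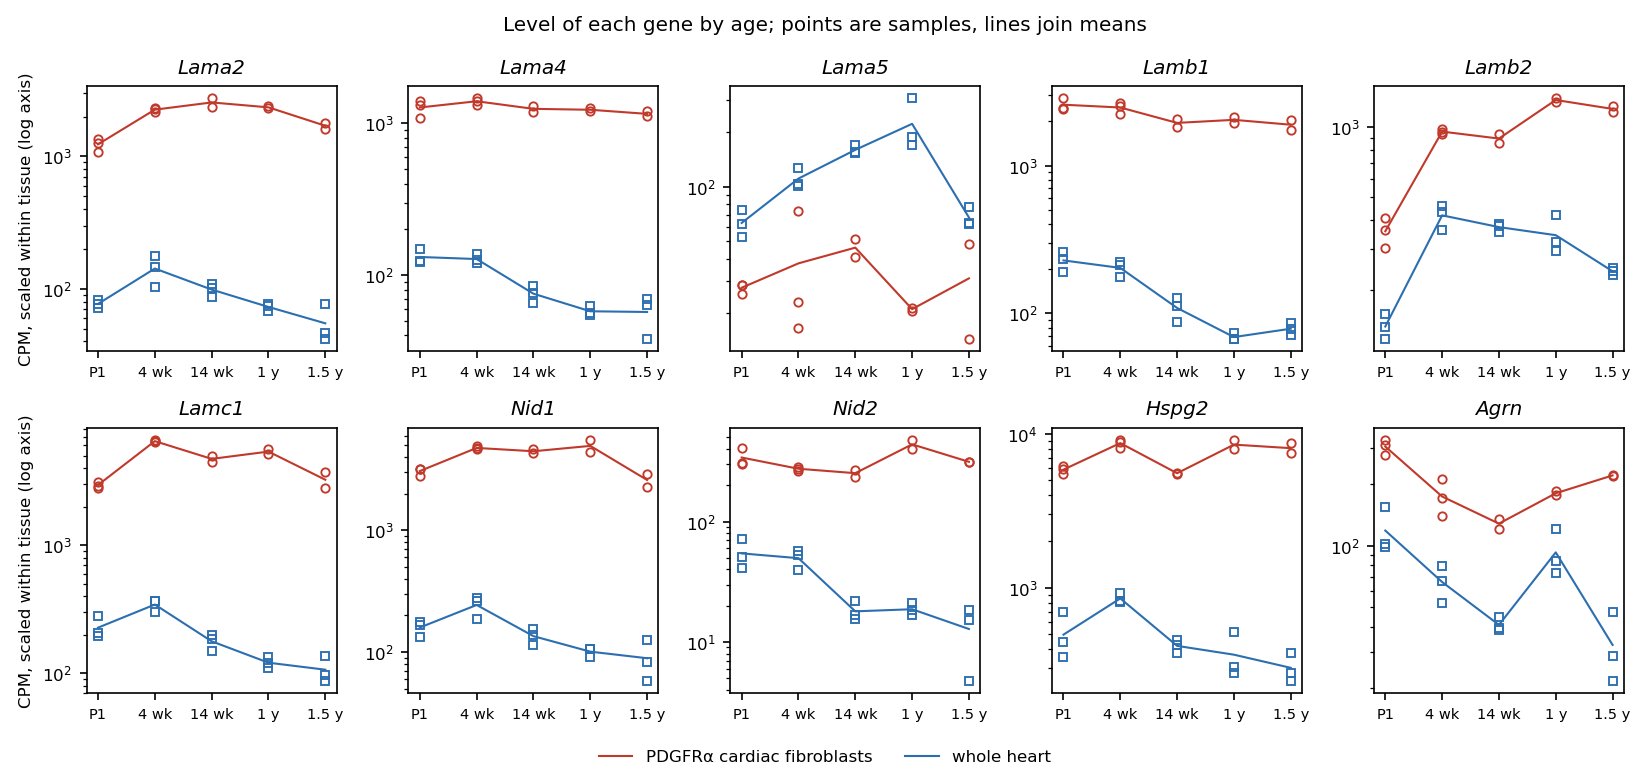
Level of each of the 10 genes by age in cardiac fibroblasts and whole hearts, as CPM scaled within each tissue on a log axis. Points are samples and lines join the means, and the fibroblast values lie above the heart values for every gene except Lama5.

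Perlecan, nidogen-1 and the γ1 and β1 chains were the most abundant of these transcripts in neonatal cardiac fibroblasts. Per kilobase, Nid1 stood at 442 ± 31.8 CPM (mean ± SD, n = 3) at postnatal day 1, and Hspg2 at 409 ± 26.8 CPM. These neighbours in the order overlapped between samples. Lamc1 followed at 356 ± 20.7 CPM per kilobase and Lamb1 at 260.0 ± 24.7. Then came Lama4 at 105 ± 14.0 CPM per kilobase. Next were Lama2 at 75.6 ± 8.47, Nid2 at 65.8 ± 12.0 and Lamb2 at 58.7 ± 8.79 CPM per kilobase, whose samples overlapped. Agrn at 33.0 ± 2.84 and Lama5 at 2.43 ± 0.155 CPM per kilobase were lowest. At 1.5 years Hspg2 led at 564 ± 58.6 CPM per kilobase (n = 2). Lamb2 had reached 197 ± 8.53 CPM per kilobase and overlapped Lamb1 at 190.4 ± 21.6.

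Whole hearts differed from this order in the β and α chains. At postnatal day 1 Hspg2 was highest at 34.8 ± 12.3 CPM per kilobase (n = 3), and Lamb1 and Lamb2 were level at 23.0 ± 3.68 and 22.9 ± 2.83. At 1.5 years Lamb2 was highest, at 39.5 ± 1.46 CPM per kilobase, above Hspg2 at 21.2 ± 4.85 and Lamc1 at 12.9 ± 3.24. Lama2 was the lowest of the 10 genes at birth, at 4.70 ± 0.315 CPM per kilobase, and overlapped Lama5 at 5.54 ± 0.950.

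Over the mean of the 5 ages, 9 of the 10 genes were higher in cardiac fibroblasts than in whole hearts and Lama5 was lower. All 10 passed edgeR's quasi-likelihood F test at a Benjamini-Hochberg adjusted p under 0.05, in a comparison in which 56.8% of all 20650 genes tested did (27.7% higher and 29.1% lower). The log2 difference was 4.47 ± 0.113 (± SE) for Nid1, 4.27 ± 0.0911 for Lamc1, 4.19 ± 0.101 for Lama2, and 3.80 ± 0.0813 for Lamb1. Hspg2, Lama4 and Nid2 followed at 3.63, 3.56 and 3.28. Agrn and Lamb2 differed less, by 1.28 ± 0.112 and 1.27 ± 0.0681. The α5 chain stood at −2.16 ± 0.199 (adjusted p = 1.12e-09, edgeR). At postnatal day 1 alone all 10 also passed (32.3% of genes tested), with Nid1 at 3.92 and Lama5 at −1.53. Cardiac fibroblast and whole heart libraries were counted in separate tables, and the comparison rests on their joint TMM scaling. Over 13374 genes the difference over the mean of the ages had a Spearman ρ of 0.28 with exonic length, given as a description. Genes over 5 kb, as the 10 genes all are, had a median of 0.44 and those under 2 kb of −1.06. With an offset for exonic length in the fit all 10 were still called, and the part of length was not tested further.

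Across the 5 ages together, 7 of the 10 genes differed in cardiac fibroblasts (all but Lama4, Lama5 and Lamb1, with 19.9% of genes tested called) and all 10 in whole hearts (34.3% of genes tested called).

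From postnatal day 1 to 4 weeks, the β2 and γ1 chains, the α2 chain, nidogen-1 and perlecan rose in cardiac fibroblasts and agrin fell. In total 6 of the 10 genes passed the test, 5 higher and 1 lower, where 15.5% of all genes tested did (9.28% higher and 6.2% lower). The median log2 fold change of the 10 genes was 0.51, against 0.00 over all genes tested. In whole hearts 6 of the 10 also passed, 5 higher and 1 lower, with 18.2% of all genes tested called (12.1% higher and 6.1% lower) and a median log2 fold change of 0.61 against −0.09. Lama2, Lamb2, Lamc1, Hspg2 and Agrn were called in each tissue. The remaining call was Nid1 in cardiac fibroblasts (0.63 ± 0.13 on the log2 scale, adjusted p = 0.00588, edgeR) and Lama5 in whole hearts (0.81 ± 0.20, adjusted p = 0.00894). None of the 10 genes passed when the difference between the tissues in this change was itself tested (0 of 10 by edgeR and 0 by DESeq2, 7.14% of genes tested called by edgeR). Lamc1 alone had an unadjusted p under 0.05 in that test (difference 0.53 ± 0.25 log2, adjusted p = 0.211, edgeR). Scaling by library size in place of TMM shifted the median of all genes in whole hearts to −0.60 and left 3 of the 10 called there, 1 higher (Lamb2) and 2 lower (Agrn and Lamb1). Without replicate 3 of the hearts at 4 weeks, 3 were called as well.

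**Figure D2:**
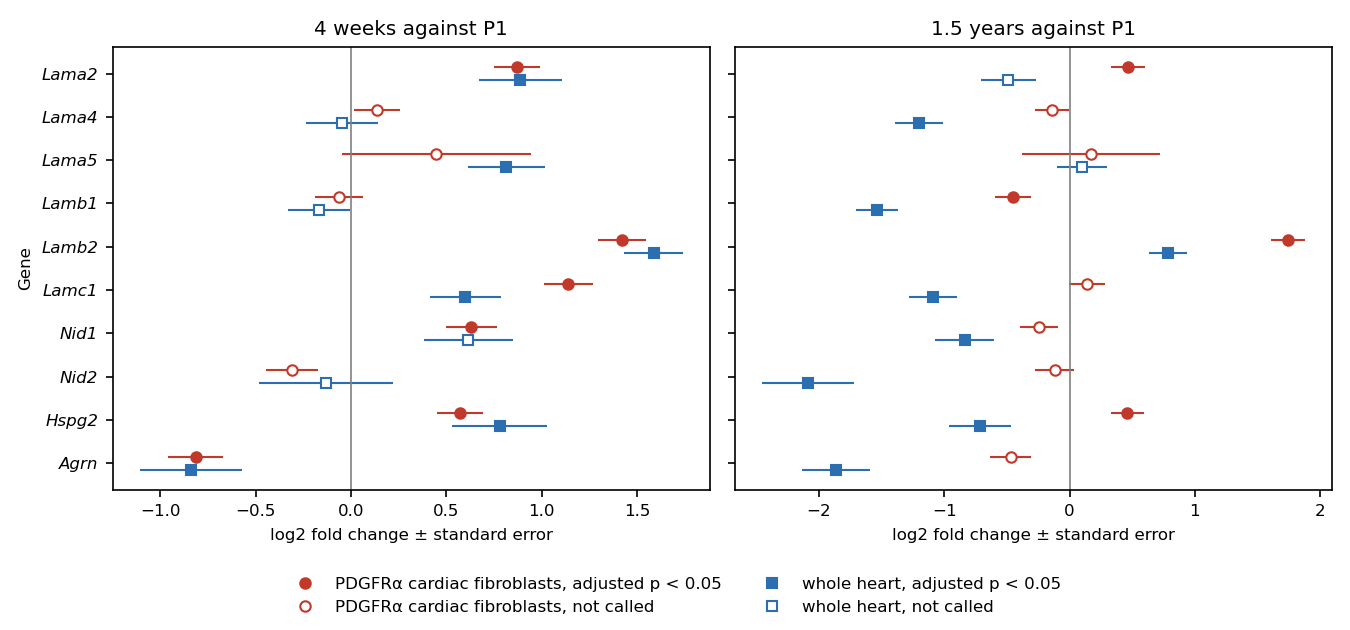
Log2 fold change (± SE) of each gene at 4 weeks and at 1.5 years against postnatal day 1, in cardiac fibroblasts and whole hearts, with filled symbols for an adjusted p under 0.05. Lamb2 lies to the right in every panel and tissue, while most other genes of whole hearts lie to the left at 1.5 years.

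Lamb2 encodes the β2 chain, which takes the place of β1 in some laminins. In cardiac fibroblasts Lamb2 was counted at 301, 362 and 408 CPM at postnatal day 1 and at 937, 948 and 981 CPM at 4 weeks. It was then 851 and 933 CPM at 14 weeks, 1331 and 1281 at 1 year, and 1159 and 1232 at 1.5 years. Every sample after birth lay above every neonatal sample. The log2 fold change was 1.42 ± 0.12 at 4 weeks (adjusted p = 6.96e-06, edgeR) and 1.74 ± 0.13 at 1.5 years (adjusted p = 1.89e-06), both against postnatal day 1. Whole hearts held Lamb2 at 138, 157 and 122.5 CPM at postnatal day 1 and at 459, 434 and 360.2 CPM at 4 weeks. The later hearts were at 355, 376 and 384 CPM (14 weeks), 292, 319 and 418 (1 year), and 242, 231 and 248 (1.5 years). After TMM scaling the neonatal hearts were again the lowest and did not overlap with any later age. By library total they overlapped the hearts of 1.5 years. In hearts the rise at 4 weeks was 1.59 ± 0.15 (adjusted p = 1.6e-06, edgeR), and at 1.5 years Lamb2 was 0.79 above birth (adjusted p = 0.000748, but 0.398 with scaling by library size).

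Lamb1, the β1 chain of the laminins made first in the embryo, did not show this course. Cardiac fibroblasts had 2412, 2463 and 2859 CPM at postnatal day 1, 2522, 2658 and 2224 at 4 weeks, and 2039 and 1737 at 1.5 years. The first ages overlapped. Both samples of 1.5 years lay below all neonatal ones, in a comparison in which 41.2% of all genes tested did not overlap. The log2 fold change was −0.45 (adjusted p = 0.0487, edgeR, which was 0.0531 without the filter on low counts). In whole hearts Lamb1 was 234, 261 and 189 CPM at postnatal day 1, 213, 175 and 221 at 4 weeks, 113, 87.0 and 126 at 14 weeks, 66.7, 73.8 and 66.8 at 1 year, and 86.3, 78.9 and 70.85 at 1.5 years. Birth and 4 weeks overlapped, and all later hearts were lower. The fall from 4 to 14 weeks was −0.90 (adjusted p = 0.011, edgeR), and at 1.5 years Lamb1 was −1.54 below birth (adjusted p = 3.61e-06).

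Taken within each sample, the ratio of the 2 chains does not depend on how libraries are scaled. The ratio of Lamb2 to Lamb1 counts was 0.125 to 0.147 in neonatal cardiac fibroblasts and 0.357 to 0.441 at 4 weeks. It reached 0.452 to 0.467 at 14 weeks, 0.623 to 0.661 at 1 year, and 0.568 to 0.71 at 1.5 years. Only the last 2 ages overlapped. In whole hearts the ratio was 0.59 to 0.648 at postnatal day 1, 1.63 to 2.47 at 4 weeks, 3.04 to 4.32 at 14 weeks, 4.32 to 6.26 at 1 year, and 2.80 to 3.50 at 1.5 years. Here no 2 ages up to 1 year overlapped, though 14 weeks and 1 year came close, and 1.5 years overlapped 14 weeks and lay below 1 year. With the rank of the 5 ages, the log2 ratio correlated in cardiac fibroblasts (Pearson r = 0.88, permutation p = 0.00012, adjusted over 8 relations 0.00096; Spearman ρ = 0.95, p = 1e-05, the smallest that 100000 permutations can give, adjusted 8e-05, n = 12). In whole hearts r was 0.79 (permutation p = 0.00035, adjusted 0.0014) and ρ was 0.73 (p = 0.00293, adjusted 0.0117, n = 15). When the pair of samples with ages farthest from the median was removed, r became 0.92 in the sorted cells and 0.88 in hearts. With postnatal day 1 left out, ρ stayed at 0.90 in cardiac fibroblasts (adjusted permutation p = 0.0178, n = 9). In whole hearts it was then 0.475 and did not pass (adjusted permutation p = 0.338). The heart ratio from 4 weeks on rose up to 1 year and was lower at 1.5 years, a course that a correlation with rank does not describe. Between postnatal day 1 and 4 weeks the ratio differed 2.82-fold in cardiac fibroblasts and 3.36-fold in whole hearts, each with an exact permutation p of 0.1, the smallest that 3 against 3 samples allow.

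Corrected for exonic length (6.08 kb for Lamb2 and 9.92 kb for Lamb1), Lamb2 made up 18.4% ± 1.28 (SD, n = 3) of the β chain transcripts in neonatal cardiac fibroblasts. Its share was 38.8% ± 2.70 at 4 weeks and 42.8% at 14 weeks, and the samples of 1 year and 1.5 years had 51.1% and 50.9%. Whole hearts started at 49.95% ± 1.25 for Lamb2 and had 76.9% ± 3.82 at 4 weeks, 84.8% at 14 weeks, then 88.8% (1 year) and 83.3% (1.5 years). The share in cardiac fibroblasts at 1 year was thus near that of neonatal hearts.

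**Figure D3:**
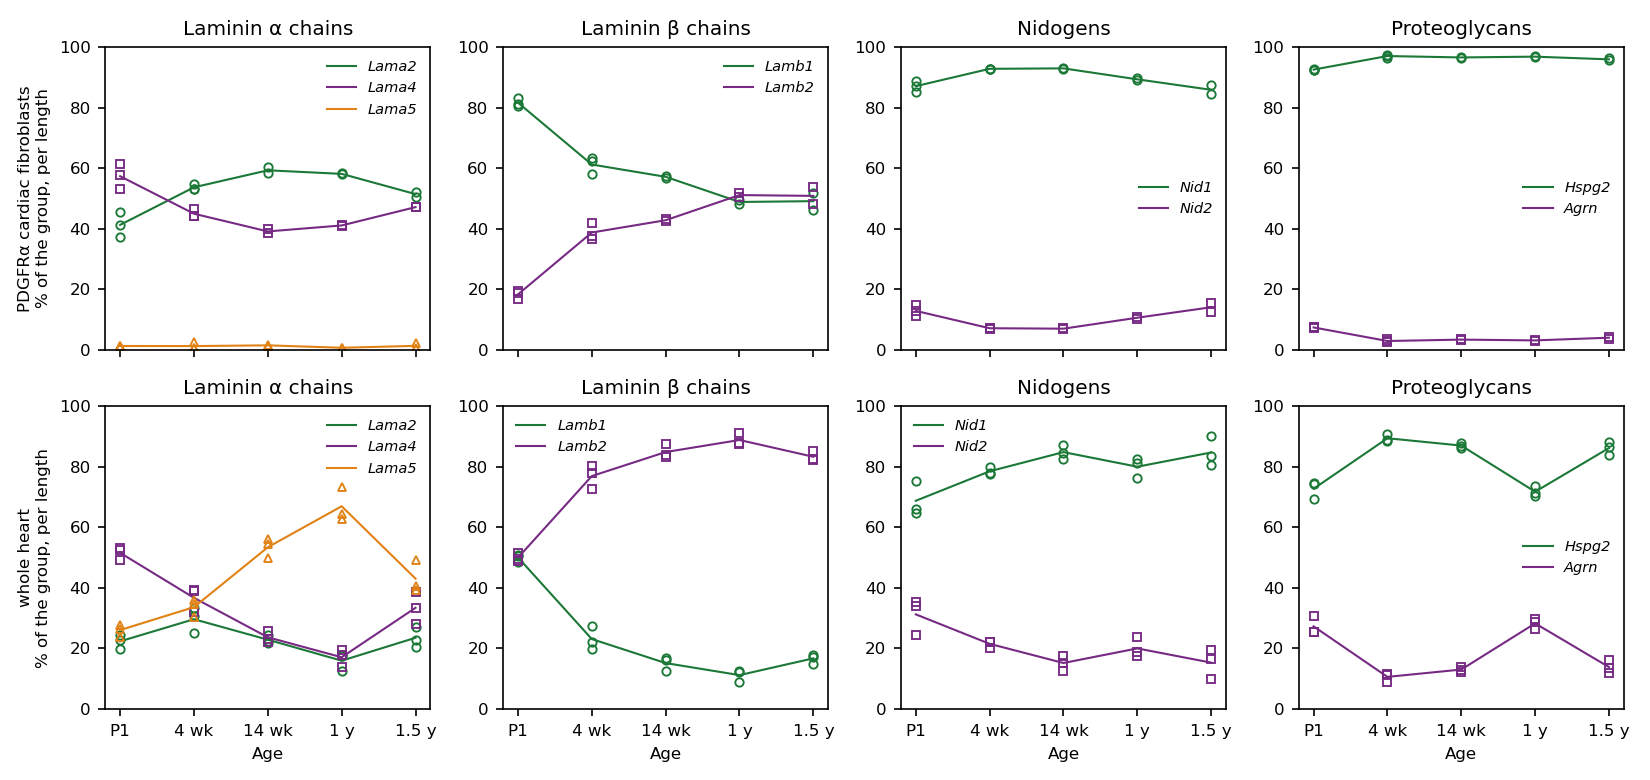
Share of each α chain, β chain, nidogen and proteoglycan in the summed transcripts of its group, per exonic length, by age in cardiac fibroblasts (top) and whole hearts (bottom). Points are samples and lines join the means, and the mean Lamb2 share is 18.4% at birth and 50.9% at 1.5 years in the sorted cells, against 49.95% and 83.3% in hearts.

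Of the α chains, Lama2, whose product links the cardiomyocyte and muscle surface to the matrix, rose after birth. Cardiac fibroblasts had 1260.0, 1086 and 1359 CPM at postnatal day 1 and 2340.2, 2265 and 2166 CPM at 4 weeks. Later samples had 2357 and 2761 CPM at 14 weeks, 2387 and 2312 at 1 year, and 1798 and 1613 at 1.5 years. The 1.5 year samples lay between the neonatal samples and all others. The log2 fold change was 0.87 ± 0.12 at 4 weeks (adjusted p = 0.000299, edgeR) and 0.47 at 1.5 years (adjusted p = 0.0305), both against birth. The call at 1.5 years was lost with scaling by library size (0.25, adjusted p = 0.229, edgeR), with an offset for exonic length (adjusted p = 0.0685) and with these ages fitted alone (adjusted p = 0.102). Whole hearts held 82.3, 76.2 and 72.0 CPM at postnatal day 1, 177, 104 and 146 at 4 weeks, 100.5, 87.1 and 108 at 14 weeks, 68.0, 74.5 and 76.1 at 1 year, and 76.95, 45.96 and 41.4 at 1.5 years. After TMM scaling, samples of 4 weeks and of 14 weeks lay above all neonatal hearts. By library total those of 4 weeks overlapped the neonatal hearts (101 to 115 CPM), and those of 14 weeks lay below them (68.5 to 94.1 CPM). The rise at 4 weeks was 0.89 ± 0.22 (adjusted p = 0.00844, edgeR). Lama2 (chr10:26980036-27619758, minus strand) shares exonic bases with the antisense gene Gm48084, and the strand setting of the counts is not given in the sources used here, so their reads cannot be told apart.

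Lama4, the α4 chain of vessel walls, showed no called difference in cardiac fibroblasts and was lower in whole hearts from 14 weeks on. In the 12 sorted samples it lay between 1083 and 1466 CPM, the narrowest span of the 10 genes (1.21-fold between the highest and lowest age means), and no difference among the ages passed the test (adjusted p = 0.536, edgeR). Whole hearts held Lama4 at 122.5 to 148.5 CPM at postnatal day 1 and 120.2 to 137 at 4 weeks, at 65.6 to 84.2 at 14 weeks, 54.96 to 62.1 at 1 year, and 37.7 to 69.9 at 1.5 years. The first 2 ages overlapped and lay above all later hearts. At 1.5 years Lama4 was −1.20 below birth on the log2 scale (adjusted p = 0.000152, edgeR).

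The Lama4 to Lama2 ratio was 0.860 to 1.22 in neonatal cardiac fibroblasts and 0.598 to 0.647 at 4 weeks, which did not overlap. Its correlation with the rank of the ages did not pass after adjustment in cardiac fibroblasts (r = −0.58, permutation p = 0.0468, adjusted 0.0748; ρ = −0.47, p = 0.12, adjusted 0.192, n = 12) or in whole hearts (r = −0.49, permutation p = 0.0621, adjusted 0.0828; ρ = −0.36, p = 0.194, adjusted 0.258, n = 15). Against the log10 of age in place of its rank, r did pass, at −0.79 in cardiac fibroblasts (adjusted permutation p = 0.00581) and −0.71 in whole hearts (adjusted permutation p = 0.00601), with ρ as before. It also passed against the rank with the pair of samples farthest from the median age removed (r = −0.85, adjusted permutation p = 0.00384, and −0.72, adjusted 0.00749). With postnatal day 1 left out, r was 0.17 and 0.25 (adjusted permutation p = 0.732 and 0.579), so that the negative relation was not seen without the neonatal samples.

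Lama5, the α5 chain that endothelial and epithelial cells make, was scarce and uneven in the sorted cells. It was 28.8, 28.6 and 25.7 CPM at postnatal day 1, 23.0, 16.5 and 73.8 at 4 weeks, 51.4 and 40.9 at 14 weeks, 20.7 and 21.5 at 1 year, and 14.4 and 48.0 at 1.5 years. Replicates of 4 weeks and of 1.5 years differed from each other more than the age means did, and no difference among the ages passed the test (adjusted p = 0.586, edgeR). Endothelial transcripts moved with it. The 4 sorted samples with the most Lama5 (replicate 3 of 4 weeks, both of 14 weeks, replicate 5 of 1.5 years) were also the 4 with the highest sum of 9 endothelial markers, 2063 to 2739 CPM, and the other 8 samples had sums of 804 to 1475 CPM. All 9 markers were detected, among them Pecam1 at 198 to 282 CPM in those 4 samples and at 34.55 to 103.6 CPM in the others. The part of endothelial RNA in the Lama5 values was not tested.

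**Figure D4:**
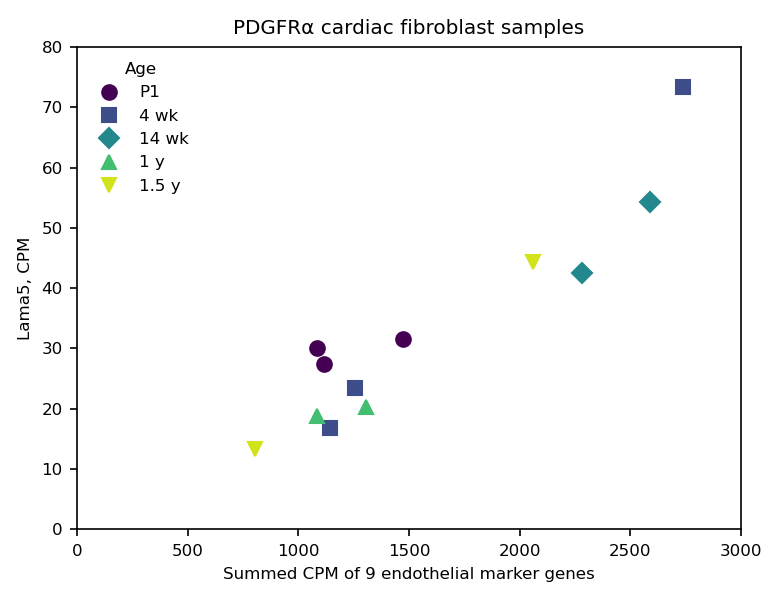
Lama5 (CPM scaled by library total) against the summed CPM of 9 endothelial marker genes in the 12 samples of cardiac fibroblasts, with symbols by age. The samples form 2 clusters, of which the one with sums of at least 2063 CPM has Lama5 between 42.4 and 73.4 CPM.

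Whole hearts held more Lama5, and its age means spanned 3.52-fold there, the widest of the 3 α chains. The hearts had 62.5, 74.2 and 52.6 CPM at postnatal day 1, 127.5, 104 and 101 at 4 weeks, 169, 156 and 154 at 14 weeks, 169.8, 189 and 308.5 at 1 year, and 77.2, 63.2 and 62.6 at 1.5 years. After TMM scaling, values were higher at each age up to 1 year with no overlap, and at 1.5 years lay in and just above the neonatal range. Steps without overlap, higher or lower, held for 39.0%, 20.1% and 26.4% of all genes. The steps to 14 weeks (0.53, adjusted p = 0.255, edgeR) and to 1 year (0.48, adjusted p = 0.29) did not pass the test. By library total the steps to 4 weeks and to 1 year overlapped, and the hearts of 1.5 years lay below the neonatal ones. The step from 1 year to 1.5 years was −1.72 ± 0.21 on the log2 scale (adjusted p = 0.000868, edgeR). By library total, the endothelial sum in hearts was 1005 to 1644 CPM at postnatal day 1, 1461 to 1491 at 4 weeks, 769 to 904 at 14 weeks, 788 to 995 at 1 year and 795 to 978 at 1.5 years. On that scale the mean of Lama5 was 90.3, 110.5, 135, 199 and 63.75 CPM from birth to 1.5 years. The endothelial sum did not follow this course. Per length, Lama5 was 26.1% ± 1.94 of the 3 α chains at birth and 66.9% ± 5.69 at 1 year, while Lama4 went from 51.6% ± 2.18 to 17.1% ± 2.89. The Lama5 to Lama4 ratio correlated with the rank of the ages in hearts (r = 0.65, permutation p = 0.00998, adjusted 0.02; ρ = 0.65, p = 0.0102, adjusted 0.0204, n = 15). With postnatal day 1 left out ρ was 0.324 (adjusted permutation p = 0.5).

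Lamc1 encodes γ1, the γ chain of nearly all laminins outside epithelia, and its transcript rose in cardiac fibroblasts after birth. Samples of postnatal day 1 had 2801.5, 2906 and 3137 CPM and those of 4 weeks 6404, 6615 and 6448 CPM. Then came 4477 and 4955 CPM at 14 weeks, 5601 and 5153 at 1 year, and 3706 and 2781 at 1.5 years. The samples of 4 weeks were the highest of all, and those of 1.5 years lay on either side of the neonatal samples. The rise at 4 weeks was 1.14 ± 0.13 (adjusted p = 5.71e-05, edgeR). In whole hearts Lamc1 was 195, 279 and 206 CPM at postnatal day 1, 363, 302 and 366 at 4 weeks, 185, 150.2 and 198 at 14 weeks, 119, 110.2 and 133 at 1 year, and 137, 96.2 and 86.4 at 1.5 years. After TMM scaling the hearts of 4 weeks were the highest, and those of 1 year and 1.5 years lay below every neonatal heart. By library total replicate 2 of the neonatal hearts, at 412 CPM, lay above all hearts of 4 weeks (305 to 386 CPM). The change was 0.60 ± 0.19 at 4 weeks (adjusted p = 0.0331, edgeR) and −0.95 from 4 to 14 weeks (adjusted p = 0.0162).

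Nidogen-1, which clasps laminin γ1 to type IV collagen, had a course close to that of Lamc1. Cardiac fibroblasts had Nid1 at 2815, 3189 and 3204 CPM at postnatal day 1, 4705.5, 4931 and 4624.5 at 4 weeks, 4278 and 4648 at 14 weeks, 5516 and 4366 at 1 year, and 2903 and 2283 at 1.5 years. All samples from 4 weeks to 1 year were above those of the youngest and oldest ages. Nid1 was the sole gene of the 10 called between 1 year and 1.5 years in cardiac fibroblasts (−0.93 ± 0.16 log2, adjusted p = 0.0429, edgeR). In whole hearts Nid1 was 168, 177 and 132 CPM at postnatal day 1, 264, 186.5 and 280.5 at 4 weeks, and 126, 83.4 and 57.5 at 1.5 years. After TMM scaling the 4 week hearts lay above the neonatal ones, which they overlapped by library total. The change of 0.62 did not pass the test (adjusted p = 0.0818, edgeR). At 1.5 years Nid1 was −0.84 below birth (adjusted p = 0.0122).

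Nidogen-2 was the minor nidogen, at 7.05% to 14.1% of both nidogens per length in cardiac fibroblasts and 15.2% to 31.3% in whole hearts as means of the ages. The sorted samples had 302.5 to 412.5 CPM of Nid2 at postnatal day 1, 263 to 285.5 at 4 weeks, 235 and 269.9 at 14 weeks, 476 and 401 at 1 year, and 314 and 313 at 1.5 years. The 4 week samples lay below all neonatal ones, with a difference of −0.31 that did not pass the test (adjusted p = 0.159, edgeR). Between these ages 28.5% of all genes tested did not overlap, higher or lower. The step from 14 weeks to 1 year was 0.79 ± 0.17 (adjusted p = 0.0352, edgeR). Whole hearts had 40.9 to 71.8 CPM at postnatal day 1, 39.3 to 56.6 at 4 weeks, 15.4 to 21.7 at 14 weeks, 16.8 to 21.05 at 1 year, and 4.71 to 18.6 at 1.5 years. Each heart from 14 weeks on lay below each younger one. At 1.5 years Nid2 was −2.09 below birth (adjusted p = 0.000368, edgeR), the largest fall of the 10 genes. The Nid2 to Nid1 ratio correlated negatively with the rank of the ages in hearts (r = −0.70, permutation p = 0.00313, adjusted 0.00835; ρ = −0.69, p = 0.00637, adjusted 0.017, n = 15; r = −0.77 with the pair of samples farthest from the median age removed). With postnatal day 1 left out ρ was −0.39 (adjusted permutation p = 0.44), so that this relation did not pass without the neonatal hearts. In cardiac fibroblasts the same ratio had r = 0.19 (permutation p = 0.554, adjusted 0.633) and ρ = 0.03 (p = 0.941, n = 12), with its lowest values at 4 and 14 weeks. With postnatal day 1 left out it had r = 0.92 (permutation p = 0.0009, adjusted 0.00712), while ρ at 0.80 did not pass after adjustment (p = 0.0136, adjusted 0.0544, n = 9). Nid1 and Nid2 share exonic bases with the antisense genes Gm48682 and Rtraf, whose reads cannot be told apart from theirs here.

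Perlecan, a large proteoglycan that binds growth factors and ties the laminin sheet to collagen, rose after birth in each tissue. Cardiac fibroblasts had Hspg2 at 5448, 5899 and 6211 CPM at postnatal day 1, 9102.5, 8136 and 8868 at 4 weeks, 5577 and 5514 at 14 weeks, 9086 and 7921 at 1 year, and 8658 and 7472 at 1.5 years. The 14 week samples lay in the neonatal range, and all other later samples were above it. The rise at 4 weeks was 0.57 ± 0.12 (adjusted p = 0.00539, edgeR) and the step from 4 to 14 weeks was −0.65 ± 0.14 (adjusted p = 0.0205), the sole call of the 10 genes in that step (3.87% of genes tested). Leaving out replicate 1 of 4 weeks or either sample of 14 weeks ended this call (adjusted p between 0.0714 and 0.191). Whole hearts had 445, 693 and 354 CPM at postnatal day 1, 925, 811 and 826 at 4 weeks, 458, 378 and 425.5 at 14 weeks, 280.0, 307 and 519 at 1 year, and 381, 281 and 247.5 at 1.5 years. After TMM scaling the hearts of 4 weeks lay above all others, with a rise of 0.78 ± 0.25 (adjusted p = 0.0385, edgeR). By library total replicate 2 of the neonatal hearts, at 1022 CPM, lay above all hearts of 4 weeks (820 to 871 CPM).

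Agrin was the gene that fell at 4 weeks. In cardiac fibroblasts Agrn was 278, 312 and 329.8 CPM at postnatal day 1, 172, 139.7 and 211 at 4 weeks, 135 and 121 at 14 weeks, 185 and 177 at 1 year, and 220.2 and 222 at 1.5 years. Every later sample was below every neonatal one. The fall at 4 weeks was −0.81 ± 0.15 (adjusted p = 0.00198, edgeR), and Agrn at 1.5 years was 0.79 ± 0.18 above 14 weeks (adjusted p = 0.0376). Whole hearts had 98.9, 155 and 102 CPM at postnatal day 1, 79.2, 52.6 and 67.3 at 4 weeks, 44.7, 39.4 and 38.5 at 14 weeks, 73.5, 84.2 and 120.4 at 1 year, and 47.4, 28.8 and 21.6 at 1.5 years. Hearts of 4 weeks lay below the neonatal hearts, and those of 1 year stood above 14 weeks and overlapped with birth. The changes were −0.84 ± 0.27 at 4 weeks (adjusted p = 0.0378, edgeR), 1.18 ± 0.27 from 14 weeks to 1 year (adjusted p = 0.0476) and −1.51 ± 0.27 from 1 year to 1.5 years (adjusted p = 0.011). Without replicate 3 of the hearts of 1 year the last was −1.28 (adjusted p = 0.0668), and without replicate 2 of the neonatal hearts the change at 4 weeks was −0.60 (adjusted p = 0.183). Agrin took 27.3% ± 3.03 of the perlecan and agrin transcripts per length in neonatal hearts, 10.6% ± 1.36 at 4 weeks and 28.3% ± 1.76 at 1 year. In the sorted samples 5 of the 7 cardiomyocyte markers also fell from birth to 4 weeks, and their part in the Agrn values was not tested.

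Between neighbouring ages from 4 weeks on few of the 10 genes were called, as were few of all genes tested. In cardiac fibroblasts 1 gene was called from 14 weeks to 1 year (Nid2, with 1.78% of genes tested called), 1 from 1 year to 1.5 years (Nid1, 0.24%), and 2 between 14 weeks and 1.5 years (Agrn higher, and Nid1 at −0.78, adjusted p = 0.0258, edgeR, 2.72%). With 2 samples at each of these ages, leaving out single libraries moved these counts to between 0 and 3. In whole hearts Lamb1 and Lamc1 were called from 4 to 14 weeks (2 of 10, 1.61% of genes tested, 0.85% lower) and both fell. The median log2 fold change of the 10 genes in that step was −0.80, against 0.00 over all genes tested, and 9 of the 10 had an unadjusted p under 0.05 by edgeR. DESeq2 called 6 of 10 there. By library total, the summed fibroblast markers went from 847 to 1230 CPM at 4 weeks to 537 to 693 CPM at 14 weeks. Those of mural cells went from 1151 to 1666 to 742 to 816 CPM, and those of endothelial cells from 1461 to 1491 to 769 to 904 CPM. Sums of macrophage, mesothelial and cardiomyocyte markers were also lower at 14 weeks without overlap, and those of glia overlapped. The heart TMM factors were 0.939 to 1.05 at 4 weeks and 0.787 to 0.871 at 14 weeks, so these marker falls are smaller on the TMM scale. The part of the marked cells in the falls of the 10 genes was not tested. In whole tissue fewer cells of a type and less RNA per cell cannot be told apart. From 14 weeks to 1 year 1 gene was called in hearts (Agrn, 0.972% of genes tested), and from 1 year to 1.5 years 2 (Lama5 and Agrn, both lower, with 2.66% of genes tested called and 1.82% lower).

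At 1.5 years more of the 10 genes differed from birth in whole hearts than in cardiac fibroblasts, and so did more of all genes tested. The age of 1.5 years had 3 heart samples and 2 fibroblast samples. In cardiac fibroblasts 4 of 10 genes differed from postnatal day 1 (16.3% of genes tested, 9.86% higher and 6.46% lower), with Lamb2, Lama2 and Hspg2 (0.46, adjusted p = 0.0299, edgeR) higher and Lamb1 lower. With scaling by library size, which put the median of all genes at −0.15, the 4 called were 1 higher (Lamb2) and 3 lower (Lamb1, Agrn at −0.68 and Nid1 at −0.45), and Hspg2 (0.25, adjusted p = 0.208, edgeR) and Lama2 were lost. Without replicate 2 of postnatal day 1 or replicate 4 of 1.5 years 1 gene was called, and without replicate 5 of 1.5 years 2. In whole hearts 8 of 10 differed (31.8% of genes tested, 15.6% higher and 16.3% lower), with Lamb2 higher and the other 7 lower, and the median log2 fold change of the 10 was −0.96 against −0.15 over all genes tested. The 7 were Nid2, Agrn (−1.86, adjusted p = 7.42e-05, edgeR), Lamb1, Lama4, Lamc1 (−1.09, adjusted p = 0.000313), Nid1 and Hspg2 (−0.72, adjusted p = 0.0378). With scaling by library size, which put the median of all genes at −0.75, 8 were called lower and Lamb2 was at 0.18 (adjusted p = 0.398, edgeR). Tested as the difference between the tissues, the change from birth to 1.5 years was more positive in cardiac fibroblasts for 8 of 10 genes (13.6% of genes tested called, 7.88% in this direction). The median difference was 1.05 for the 10 genes and 0.32 over all genes tested. Nid1 (0.57 ± 0.32, adjusted p = 0.26, edgeR) and Lama5 (0.04 ± 0.58) were not called. Without replicate 3 of the hearts of 1.5 years 5 of 10 were called. The comparisons of 4 weeks and of 1.5 years use the same neonatal samples.

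Transcript length moved with the oldest hearts. Over 12972 genes, the log2 fold change between 14 weeks and 1.5 years in whole hearts had a Spearman ρ of −0.51 with exonic length, given as a description across genes, and genes over 5 kb had a median of −0.40 and those under 2 kb of 0.61. From birth to 1.5 years ρ was −0.39, with medians of −0.49 and 0.71. From 1 year to 1.5 years it was −0.45, with medians of −0.33 and 0.38, and with an offset for exonic length the calls of Lama5 (−1.10, adjusted p = 0.00926, edgeR) and Agrn (−1.07, adjusted p = 0.0114) in that step held. From birth to 4 weeks ρ was −0.11 in hearts, and in cardiac fibroblasts it lay between −0.24 and 0.07 in the 6 pairs of ages compared. The 10 genes are all long, from 5.17 kb of exons for Nid2 to 16.3 kb for Lama2. Between 14 weeks and 1.5 years 4 of the 10 fell in whole hearts (Lama2, Lama5, Lamb2 and Lamc1, 12.8% of genes tested called, 7.86% lower), with Lama5 at −1.24 (adjusted p = 0.0015, edgeR) and Lamb2 at −0.63 (adjusted p = 0.0117). With an offset for exonic length in the fit, edgeR called 0 of 10 in this comparison (1 at an unadjusted p under 0.05), while DESeq2 without that offset called 4. From birth to 1.5 years the offset left 7 of 10 called in hearts, with 3 higher (Lama2 0.47, Lama5 0.91 and Lamb2) and 4 lower (Lamb1, Nid2, Lamc1 and Agrn). Lama2 and Hspg2 changed sign, the latter to 0.22 without being called. Of the 8 differences between the tissues the offset left 1, Nid2. RNA quality values are not given in the sources used here, and the part of transcript length in these falls of the oldest hearts was not tested beyond this offset.

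**Figure D5:**
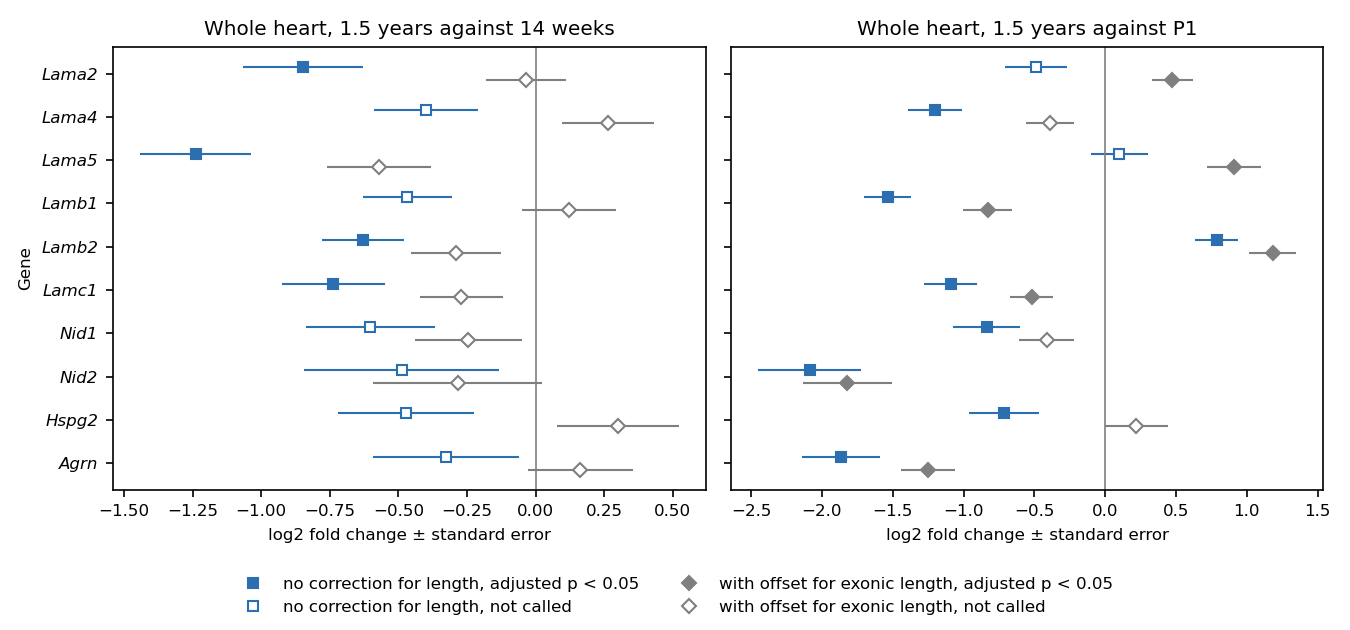
Log2 fold change (± SE) of each gene in whole hearts with and without an offset for exonic length in the fit, for the 2 comparisons that end at 1.5 years, with filled symbols for an adjusted p under 0.05. With the offset the values lie further to the right, and none of the 10 is filled for 1.5 years against 14 weeks.

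Other lists of the same pathway are given by their counts, to be read against the shares of all genes tested that were called (15.5% at 4 weeks and 16.3% at 1.5 years in cardiac fibroblasts, 18.2% and 31.8% in whole hearts, each against birth). Type IV collagen is the other network of basement membranes. Between birth and 4 weeks, 4 of its 6 genes rose and 2 fell in cardiac fibroblasts. Col4a3 rose from a mean of 2.39 to 253 CPM (log2 fold change 6.71 ± 0.51, adjusted p = 2.23e-06, edgeR), Col4a4 by 5.66, Col4a6 by 3.62 and Col4a5 by 3.43. The widespread chains went the other way, Col4a2 from 4674 to 2586 CPM (−0.85) and Col4a1 from 6447 to 4782 CPM (−0.43, adjusted p = 0.0354). In whole hearts 3 rose (Col4a3 2.42, Col4a4 1.65 and Col4a2 0.69) and the other 3 did not pass the test. By 1.5 years Col4a1 and Col4a2 were −1.64 and −1.59 below birth in hearts, where Col4a5 fell most (−2.83, adjusted p = 1.19e-07, edgeR), and −1.21 and −1.87 in cardiac fibroblasts. Heart fold changes of that comparison moved with exonic length (Spearman ρ = −0.39 across genes). Values with the length offset are not reported here for these other lists. Col4a3 (4.56), Col4a4 (4.38), Col4a6 (3.72) and Col4a5 (1.92) were still above birth in cardiac fibroblasts at that age.

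Of 11 receptors of laminins and agrin, 3 rose and 1 fell in cardiac fibroblasts at 4 weeks. Dag1, the gene of dystroglycan, went from 272 to 510 CPM (0.91 ± 0.13, adjusted p = 0.000453, edgeR), and Lrp4, the agrin receptor of muscle, fell by 0.83. In whole hearts Itga7, the integrin chain of muscle that binds laminin, rose from 24.0 to 212 CPM (3.14 ± 0.19, adjusted p = 1.04e-08, edgeR) and Dag1 rose by 1.09, while 8 of the 10 tested did not pass. At 1.5 years 5 of 10 were below birth in hearts, among them Itga3 (−1.59), Itga1 (−1.43) and Itga6 (−0.93), and Itga7 was above it (2.39). These heart values too are from the fit without the length offset. Enzymes that glycosylate dystroglycan for laminin binding rose in 5 of 12 cases in hearts at 4 weeks, with Pomgnt2 at 1.56 and B4gat1 at 1.14, and 2 of 12 (Pomt1 and Pomgnt2) rose in cardiac fibroblasts.

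Among 13 genes of heparan sulfate synthesis, which supplies the chains of perlecan and agrin, 3 rose in cardiac fibroblasts at 4 weeks. These were the xylosyltransferase Xylt1 (2.01 ± 0.21, adjusted p = 2.95e-05, edgeR), the sulfatase Sulf2 (1.11) and the epimerase Glce (1.08). Of 16 other basement membrane genes 8 rose and 4 fell in cardiac fibroblasts, led by Frem1 (−3.82), Ntn4, a netrin that binds laminin (3.77), Papln (3.50) and Fbln1 (2.17). In hearts 6 rose and 4 fell, with Smoc2 at 2.64 and Col18a1 at −2.18. Of the 5 other laminin chains, Lamb3 rose by 1.10 in hearts at 4 weeks.

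The genes whose log2 levels followed each of the 10 most closely were sought among protein-coding genes with a mean of at least 10 CPM, by Pearson r over the samples of a tissue, as a description. Samples of an age share their age, library scale and cell make-up in this measure. In the 15 hearts Lamc1 was followed by Col4a2 (r = 0.97), Col4a1 (0.96) and Nid1 (0.95). Lama4 was nearest to Pxdn (0.98), a peroxidase that cross-links collagen IV, which was also first for Nid2 (0.96). Lamb1 was nearest to Lama4 (0.95), and Hspg2 to the mural receptor gene Pdgfrb (0.93). In the 12 sorted samples Lama2 was nearest to Xylt1 (0.98), Lamb2 to Tapbp (0.99), Lamc1 to Mfap5 (0.96) and Agrn to Lmo4 (0.98). The nearest genes to Lama5 there were Myo10 (0.96) and the endothelial genes Egfl7 (0.96) and Tie1 (0.95).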

How the data were processed

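Per the labels, the study's methods and the submitters' processing notes, single-end reads of polyadenylated RNA were aligned by the authors to mm10 with STAR (2.5.3a), and whole-number read counts per gene were deposited as 1 table for each tissue. The annotation and strand column are not given in the sources used here. No count table column lay outside the samples listed. The methods speak of 3 fibroblast sets per age, whereas the labels give 2 from 14 weeks on.

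Genes were kept with filterByExpr (edgeR 4.0.16, R 4.3.3), libraries scaled by TMM, and ages compared in a fit of all samples of a tissue with age as the only term, by the quasi-likelihood F test of edgeR. Tissues and their interaction with age were fitted on all 27 samples. P values were adjusted by Benjamini-Hochberg over all genes tested (18759, 17995 and 20650), with a threshold of 0.05. Scripts were tested on simulated data. Exonic lengths came from GENCODE M21 and were found for 95.4% of genes. Ratios had 0.5 added to each count, and correlations used 100000 permutations. The alternatives were median-of-ratios size factors, library size alone, no filter, at least 10 counts in every sample, DESeq2 (1.42.0), a replicate block, an offset for exonic length, the ages compared alone, leaving out each sample or postnatal day 1, and, for correlations, the log10 of age.

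The genes and lists were chosen with earlier results of these data known. Every one of the 10 genes was described. From each other list, at most 4 genes per comparison were named, those with the largest change among genes that passed the test with a mean of at least 10 CPM in an age, and for type IV collagen those that passed at 4 weeks and 1.5 years against birth. Some genes of these lists, and further comparisons of them, are not reported here. Marker genes were named where they stand beside a result, and the 3 closest genes were drawn for each of the 10.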

Additional observations from a re-analysis of the deposited data

Results flagged for a closer look

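The change between birth and 1.5 years of age differed between cardiac fibroblasts and whole hearts for 8 of the 10 genes, by a test of the difference itself (edgeR's quasi-likelihood test, adjusted p under 0.05, 13.6% of genes tested called). As the fibroblast change minus the heart change on the log2 scale, the difference was 1.94 ± 0.45 (SE) for Nid2 and 1.37 ± 0.35 for Agrn. It was 1.20 ± 0.26 for Lamc1, 1.15 ± 0.33 for Hspg2, 1.06 ± 0.24 for Lamb1 and 1.04 ± 0.26 for Lama4. Lama2 and Lamb2 each stood at 0.93, with SE of 0.29 and 0.21. The median over all genes tested was 0.32. With an offset for exonic length the differences were 1.40 for Nid2 (adjusted p = 0.018, edgeR), 0.63 for Agrn, 0.49 for Lamc1, 0.28 for Lamb2, 0.25 for Lamb1, 0.16 for Hspg2, 0.14 for Lama4 and −0.09 for Lama2, and Nid2 alone passed. The cardiac fibroblast samples of 1.5 years number 2.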

How the results depend on the processing

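The counts of the 10 genes called at 4 weeks against postnatal day 1 in cardiac fibroblasts stayed at 6 without any single library. In whole hearts that count was 3 with scaling by library size, and 3 to 7 without single libraries, the lowest without replicate 3 of 4 weeks. For 14 against 4 weeks it was 2 with DESeq2 in cardiac fibroblasts (0 to 1 without single libraries). In hearts it was 4 with no filter, 5 with the ages compared alone, and 6 with library size, at least 10 counts in every sample, DESeq2 or the length offset without or with the replicate block (0 to 6 without single libraries, 0 without replicate 3 of 4 weeks or replicate 2 of 14 weeks).

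For 1 year against 14 weeks in cardiac fibroblasts the count was 0 with library size and with the replicate block without or with the length offset, 2 with at least 10 counts or the length offset, 3 with DESeq2 and 5 with the ages alone (0 to 3 without single libraries). In hearts it was 0 with library size or the replicate block, 2 with DESeq2 and 4 with the ages alone (0 to 2). For 1.5 years against 1 year it was 3 with DESeq2 in cardiac fibroblasts and 0 with the replicate block, the length offset, both, or the ages alone (0 to 2), and in hearts 1 with the ages alone (1 to 3, the lowest without replicate 3 of 1 year). For 1.5 years against 14 weeks it was 4 with at least 10 counts, 6 with DESeq2, 1 with the ages alone and 0 with the replicate block without or with the length offset in cardiac fibroblasts (0 to 3), and in hearts 1 with library size and 0 with the length offset without or with the replicate block (1 to 5). For 1.5 years against birth it was 1 with the ages alone in cardiac fibroblasts (1 to 5) and 6 to 9 without single libraries in hearts. Over the 5 ages it was 6 to 7 in cardiac fibroblasts and 10 in hearts. The causes were not tested.

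The difference between the tissues in the change to 4 weeks gave 1 call with library size and 0 without any single library, and in the change to 1.5 years 1 call with the length offset and 5 to 8 without single libraries. All 10 genes differed between the tissues at postnatal day 1 and in the mean of the 5 ages under every alternative run, while Agrn at 1 year alone was not called (0.66, adjusted p = 0.0539, edgeR). At 4 weeks against postnatal day 1, the other lists of the pathway together had 50 calls, summed over both tissues, and 42 to 56 without single libraries. Of all genes tested, 15.5% were called in that comparison in cardiac fibroblasts and 18.2% in hearts. Values that changed sign were, from birth to 1.5 years in hearts, Hspg2 at 0.22 and Lama2 at 0.47 with the length offset (0.23 and 0.48 with the replicate block too), and Lama2 at −0.093 in the difference between tissues.

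The rank correlation with age without postnatal day 1 was 0.475 for Lamb2 to Lamb1, −0.389 for Nid2 to Nid1 and 0.324 for Lama5 to Lama4, all in hearts, and 0.799 for Nid2 to Nid1 and 0.249 for Lama4 to Lama2 in cardiac fibroblasts and 0.259 for the latter in hearts, none past the adjusted threshold. It was −0.869 for Lama4 to Lama2 in cardiac fibroblasts when the pair of samples farthest from the median age was removed. Without single libraries it was 0.940 to 0.977 and 0.672 to 0.815 for Lamb2 to Lamb1 in cardiac fibroblasts and hearts, −0.261 to 0.222 and −0.780 to −0.618 for Nid2 to Nid1, −0.642 to −0.324 and −0.488 to −0.215 for Lama4 to Lama2, and −0.312 to 0.0558 and 0.578 to 0.766 for Lama5 to Lama4.

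Replicate numbers are shared between ages and tissues, and no label says what they mark. Deviations of same-numbered samples from their group means correlated at −0.03 to 0.04 over 7 pairs in cardiac fibroblasts and −0.06 to 0.10 over 30 pairs in hearts, and at −0.04 to 0.02 over 6 pairs of fibroblast and heart samples of an age. The last are from the same animals only if their numbers mark them, which the labels do not say. With the replicate block 6 genes were called at 4 weeks in cardiac fibroblasts, 4 in hearts, and 7 at 1.5 years against birth in hearts. The block could not be fitted for 14 against 4 weeks, 1.5 years against birth and the 5 ages in cardiac fibroblasts, nor for the tissue difference at 1.5 years. The spread was estimated from all cardiac fibroblast samples together. With 2 samples per later fibroblast age, small differences can still go uncalled.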
